A study of Mus musculus with 8 samples.

Results

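Colon with Nanog overexpression was compared with intestine with Nanog overexpression in the mouse, 2 arrays against 2, to list the regional differences between the parts of the gut that are seen when Nanog is overexpressed in both. The genes described are the 8191 of the 8607 genes tested in the series that had a detection p-value under 0.01, and so stood above the array's background, on both arrays of at least 1 of these 2 groups. Of the 8191 genes, 6953 were above background on all 4 arrays and 751 on some arrays of a region. A further 316 were above background on both colon arrays and on neither intestine array, and 171 on both intestine arrays and on neither colon array. These genes passed the detection rule through the region where they were high, so the counts and medians given below for gene lists describe the genes and are not tests of a list.

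The series measured total RNA of mouse intestine and colon on 8 Illumina bead arrays, on which a transcript lights up the beads that carry its probe. Each region was taken with and without Nanog overexpression, which makes 4 groups, each with 2 arrays that the design text calls biological replicates. Nanog, a homeobox protein, keeps embryonic stem cells pluripotent. The sources used here do not give the way or the cells in which it was overexpressed, the duration, the strain, age or number of mice, the stretch of intestine that was taken, or whether 1 animal gave both regions. The Nanog probe was not above background on any of the 8 arrays (its detection p-values lay between 0.172 and 0.817), and it checks nothing about the labels, because it is not known here whether the overexpressed transcript contains the probed stretch.

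The small intestine finishes digestion with enzymes anchored in the brush border of its absorptive cells, takes up sugars, amino acids, fats and bile acids, and guards its crypts with Paneth cells that secrete antimicrobial peptides. The colon receives what is left, recovers salt and water through sodium channels, proton pumps and aquaporins, and is covered by mucus from goblet cells. Enteroendocrine cells, which release gut hormones, change their hormones along the length of the gut, and Hox transcription factors mark position from front to back.

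The labels were set against the fixed panel of regional genes, as a description only, since a gene seen in 1 region entered through that region. Sis, which encodes the brush border enzyme sucrase-isomaltase, and Apoa4, a chylomicron apolipoprotein, were above background on both intestine arrays with Nanog and on neither colon array with Nanog. Best2, an anion channel gene, Fxyd4, a regulator of the sodium pump, and the posterior Hox gene Hoxd13 were above background on both colon arrays with Nanog and on neither intestine array. Readings of Fabp6, Reg3b, Lyz1 and Slc5a1, genes known from the small intestine, were mixed between arrays or present in both regions and are given below. Other regional genes gave no reading. The probes for Fabp1, a small intestinal fatty acid binding protein, and Hoxb13, a Hox gene of the hindgut, were below background on all 8 arrays. The probe for Slc26a3, the chloride exchanger of the colon, was below background on all arrays with Nanog. The annotation held 0 probes under the symbols Car1 and Lct.

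The replicates differed more in intestine than in colon. Over the 8607 tested genes the replicates correlated with r = 0.915 in intestine with Nanog and 0.965 in colon with Nanog, and the median SD of a gene was 0.23 log2 units in intestine and 0.14 in colon. Several genes with a known place along the small intestine stood apart on the intestine arrays, a set chosen after the values were seen. Fabp6, the bile acid binding protein of the ileum, read 13.43 and 4.94 in intestine with Nanog (replicate 1, then 2) and 5.89 and 6.09 in colon, all values here and below being normalized log2 intensities. The transcription factor gene Osr2 read 10.87 and 4.74 in intestine. In the opposite order, Ghrl, which encodes the stomach and duodenal hormone ghrelin, read 6.61 and 10.08. Tff2, a trefoil peptide of stomach and duodenal glands, read 4.40 and 13.05 in intestine. In colon Tff2 was higher on replicate 2 as well, at 5.49 and 11.14 with Nanog and 4.46 and 7.90 without. In intestine replicate 1 was the higher of the pair in Fabp6 and Osr2, and replicate 2 in Ghrl and Tff2. The plot of such genes shows the same order in intestine without Nanog.

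Genes of pancreatic acinar cells, the source of digestive enzymes, also moved between arrays. In intestine with Nanog the 20 members of that list averaged 6.31 (replicate 1) and 14.17 (replicate 2), and in colon with Nanog 8.21 and 13.62. The mean was high on replicate 2 of both regions, and 0 of the 20 genes passed the test between the regions. Without Nanog the mean was 6.10 and 10.28 in intestine and 6.21 and 7.71 in colon. Replicate 2 was thus the higher in every group, by less without Nanog than with it. A fit with the pancreatic mean as a covariate made 650 calls, 540 of them among the 572 of the main fit below. What part either pattern has in the results below was not tested further. The main lists below come with their counts after replicate 2 of both Nanog groups was left out. That leaves 1 array in each Nanog group, with the spread taken from the groups without Nanog, so those counts do not isolate the pancreatic pattern.

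**Figure D1:**
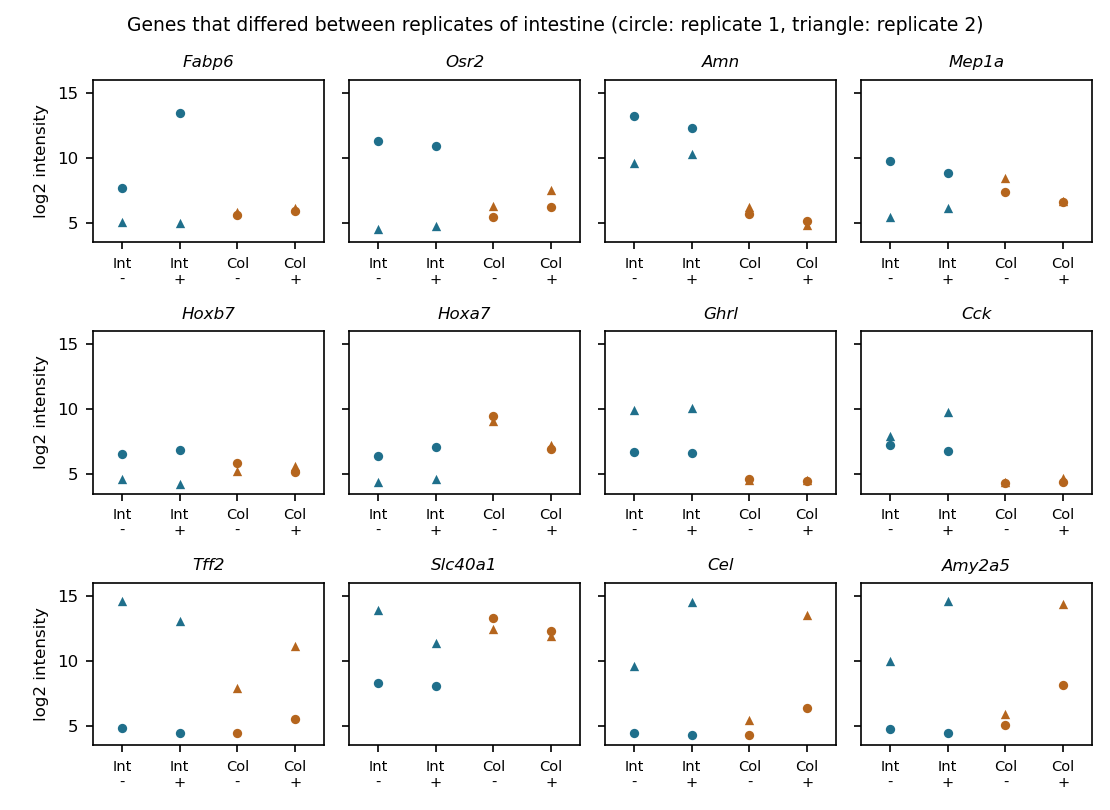
Normalized log2 intensity of 12 genes on the 8 arrays, with circles for replicate 1 and triangles for replicate 2, intestine in blue and colon in orange, and minus and plus for without and with Nanog. In intestine with Nanog the replicates lie far apart, for example at 13.43 and 4.94 for Fabp6. Cel and Amy2a5, genes of the pancreas, are high on replicate 2 of both Nanog groups. Both are also higher on replicate 2 than on replicate 1 in the groups without Nanog.

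Of the 8607 genes tested, 572 (6.65%) had an adjusted p under 0.05 by limma, 274 (3.18%) higher and 298 (3.46%) lower in colon with Nanog than in intestine with Nanog. Without adjustment, 1896 genes (22%) had a p under 0.05. The 2 groups were fully apart in all 572 called genes and in 5053 (58.7%) of all genes tested. Among the 354 called genes that were above background on all 4 arrays, the differences ran from 0.90 to 6.53 log2 units with a median of 1.88, a 3.69-fold difference. In colon, 61 called genes were lower by at least 4 log2 units and 30 were higher by at least as much. The median difference was 0.11 over the members and 0.10 over all genes tested.

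The split between the directions depended on the scaling of the arrays. When arrays were scaled to a common median, the median of all genes moved from 0.10 to 0.40. The calls were then 479, of which 307 were higher and 172 lower in colon. Cyclic loess moved the split the other way, with a median of 0.01 and 526 calls, 210 higher and 316 lower. The count depended on single arrays as well. It was 426 without replicate 1 and 208 without replicate 2 of intestine with Nanog, and 132 without replicate 1 and 141 without replicate 2 of colon with Nanog. Leaving out an array that is not in the comparison also moved it, to 912 when either replicate of intestine without Nanog was left out and to 327 when either replicate of colon without Nanog was. Without replicate 2 of both Nanog groups it was 59, with 26 higher and 33 lower. Of the 572 genes, 106 were called whichever of the 8 arrays was left out, 42 of them higher and 64 lower in colon. With 2 arrays against 2, an exact two-sided permutation test of a single gene cannot go below p = 0.333, so every call rests on the fit across all genes.

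**Figure D2:**
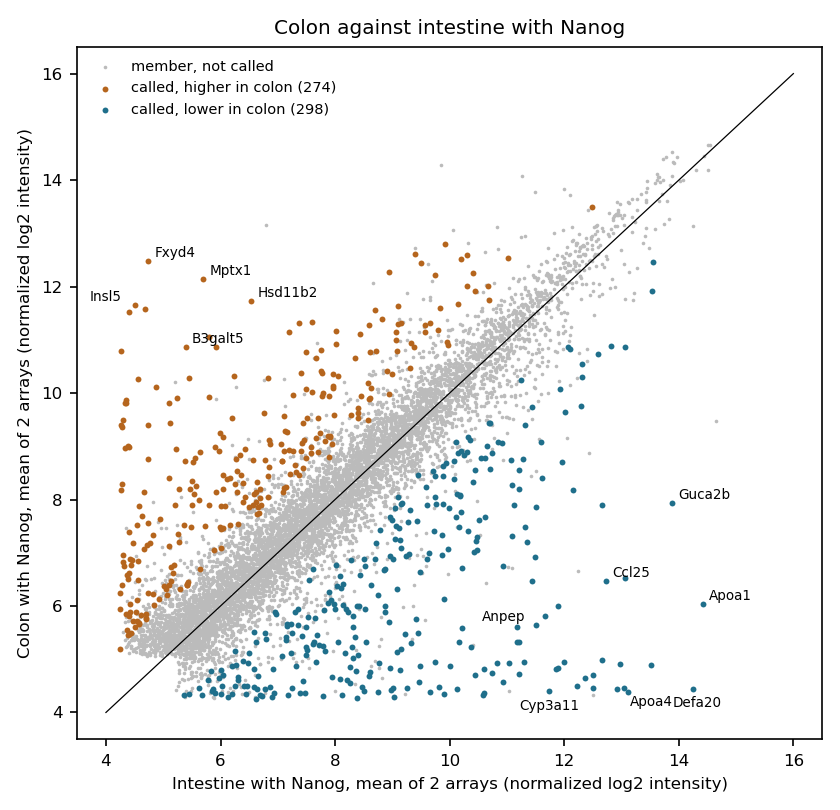
Mean normalized log2 intensity of each of the 8191 genes in intestine with Nanog (horizontal axis) and colon with Nanog (vertical axis), 2 arrays each, with the 274 genes called higher in colon in orange and the 298 called lower in blue. The band of blue points along the bottom and of orange points along the left holds genes that were near background in 1 region.

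Genes that move salt and water across the colonic lining stood out on the colon side. Of 22 genes listed for this work, 16 were members, and 9 of them were called higher in colon with Nanog and 0 lower. Their median difference was 3.69 log2 units. Over all 8607 genes tested 3.18% were called higher and 3.46% lower, the shares to set beside every list below. Fxyd4, a small regulatory subunit of the sodium pump, read 12.60 and 12.36 on the colon arrays and 4.57 and 4.91 on the intestine arrays. It was not above background in intestine and stood at least 153-fold higher in colon (adjusted p = 2.41e-05). For such bounds the dim probe is set, array by array, to the dimmest value that still counted as above background there, or to its own value if that was brighter. A bound holds for the probe used, and a second Fxyd4 probe gave a log2 difference of 6.97 against 7.74. The adjusted p beside a bound, here and below, tests the unbounded difference, with a spread taken partly from readings near background. Whether such readings make the p too small was not tested. Best2, a bestrophin anion channel of colonic goblet cells, read 11.47 and 11.70 in colon and 4.69 and 4.69 in intestine, at least 82.2-fold higher (adjusted p = 2.51e-05). Atp12a, the colonic form of the potassium and proton pump, read 11.80 and 11.24 in colon and 4.53 and 4.29 in intestine, at least 78.6-fold higher (adjusted p = 6.07e-05). The colon arrays of these genes were close to each other and far above the intestine arrays, as is likely for genes named by the smallest p.

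The 3 subunits of the epithelial sodium channel, through which the colon reabsorbs sodium, were all called. Scnn1b, the beta subunit, read 9.02 and 9.97 in colon and 4.27 and 4.34 in intestine, at least 19.3-fold higher (adjusted p = 0.000589). Scnn1g, the gamma subunit, read 9.12 and 10.51 in colon and 4.38 and 4.34 in intestine, at least 24.0-fold higher (adjusted p = 0.00612). The alpha subunit Scnn1a was above background in both regions and differed less, 3.08-fold, with 8.31 and 7.79 in colon and 6.05 and 6.80 in intestine (adjusted p = 0.0369), and it passed in 2 of the 8 fits that left out 1 array (highest adjusted p = 0.237). Hsd11b2, the enzyme that shields the aldosterone receptor from glucocorticoids, was 36.9-fold higher in colon, with a log2 difference of 5.20 ± 0.53 (SE, adjusted p = 0.0023). Aqp8, a water channel, read 11.05 and 10.67 in colon and 4.87 and 6.97 in intestine, where only replicate 2 was above background. Its difference was 4.94 ± 0.76 (SE, adjusted p = 0.0129), and its call was lost without either colon array with Nanog (highest adjusted p = 0.102). The phosphate transporter Slc20a1 was 7.73-fold higher in colon (adjusted p = 0.00276). Leaving out 1 array at a time left between 7 and 11 genes of the list called, fewest without either colon array with Nanog, and 4 were called without replicate 2 of both Nanog groups.

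Other genes of the colonic lining were led by Mptx1, a mucosal pentraxin. It read 12.34 and 11.94 in colon and 6.67 and 4.74 in intestine, a log2 difference of 6.44 ± 0.58 (SE, adjusted p = 0.00141). Of the 20 genes on that list 10 were members, 6 called higher and 1 lower in colon, with a median difference of 3.02, or 2.59 with genes below background in a region set at their bounds. Tgm3, a protein-crosslinking transglutaminase, was at least 13.6-fold higher in colon, and Selenbp1, a selenium binding protein, was 7.70-fold higher. The gene that went the other way was B4galnt2, a glycosyltransferase that decorates intestinal glycans, with 11.82 and 11.98 in intestine and 4.51 and 7.48 in colon (adjusted p = 0.0366). Its colon replicates lay nearly 3 log2 units apart, and it was not called without either array of intestine or of colon with Nanog. Cyp2c55, a colonic cytochrome P450 that oxidizes fatty acids, was 15.3-fold higher in colon with wide replicates, 12.06 and 10.57 in colon and 6.34 and 8.42 in intestine, and passed in 3 of the 8 fits that left out 1 array (highest adjusted p = 0.205). Between 3 and 6 genes of the list were called higher with 1 array left out, and 3 without replicate 2 of both Nanog groups. The count was 3 without either array of colon without Nanog and without replicate 1 of colon with Nanog.

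**Figure D3:**
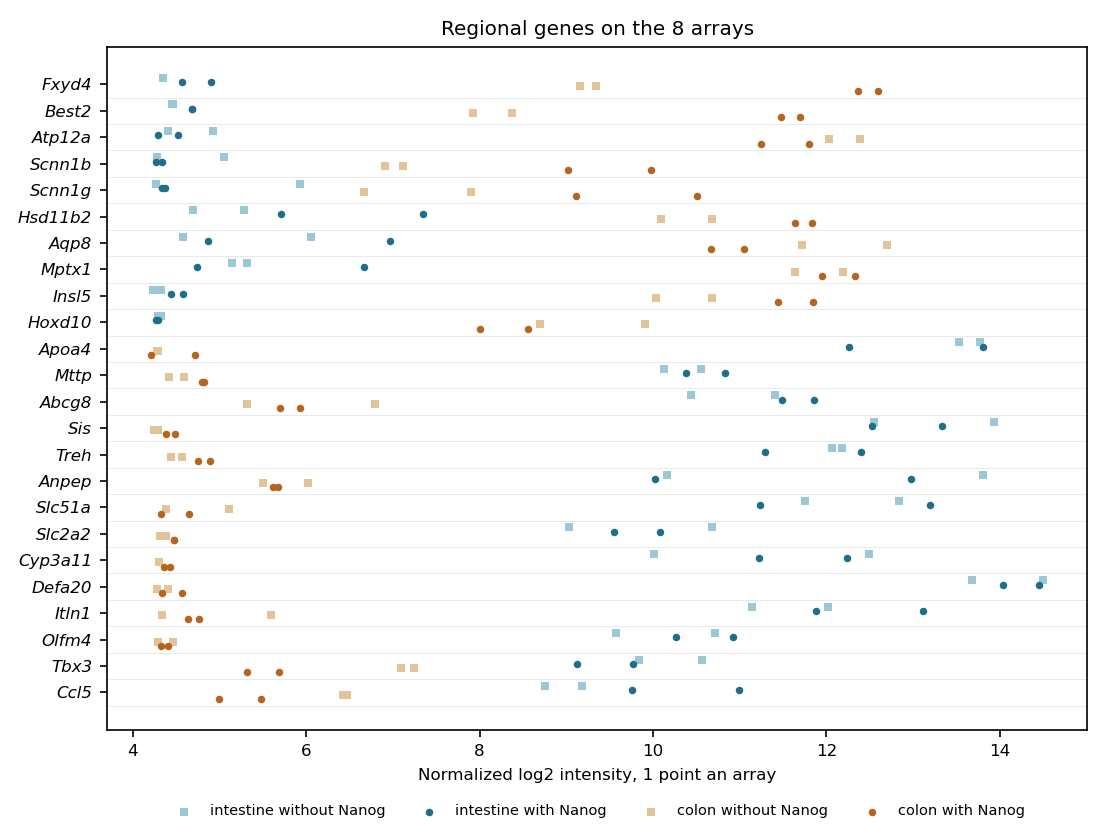
Normalized log2 intensity of 24 regional genes on each of the 8 arrays, squares for arrays without and circles for arrays with Nanog, intestine in blue and colon in orange. Under Nanog the 10 genes at the top read higher on both colon arrays than on both intestine arrays, the 14 below read lower, and Fxyd4, Best2 and Scnn1b lie further right in colon with Nanog than without.

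Outside the lists, the genes with the largest differences towards colon among those above background everywhere began with B3galt5, a galactosyltransferase of glycan synthesis. It read 11.04 and 10.68 in colon and 5.27 and 5.51 in intestine, a 44.4-fold difference (adjusted p = 0.000806). Pdzk1ip1, a small membrane protein that binds a scaffold of transporters, was 17.5-fold higher in colon, and St6gal1, which adds sialic acid to glycans, 13.4-fold higher. Tcf7l1, a repressor of Wnt target genes, was 10.9-fold higher, although its other probe gave a log2 difference of 1.08 against 3.45. Rgs16, which switches off G protein signals, was 10.1-fold higher. Gna14, a G protein subunit, Mboat1, a lysophospholipid acyltransferase, and Gprc5a, an orphan receptor, had differences of 4.09, 3.95 and 3.34 log2 units, but passed in only 2, 2 and 4 of the 8 fits that left out 1 array. Pdzk1ip1 lost its call only without replicate 1 of colon with Nanog (adjusted p = 0.0552).

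Among the genes that were not above background on either intestine array, Casp14, a caspase of cornifying epithelium, read 10.42 and 11.15 in colon and 4.29 and 4.23 in intestine, at least 47.1-fold higher (adjusted p = 0.000129). Fa2h, which makes hydroxylated sphingolipids, stood at least 32.9-fold and Hao2, a peroxisomal hydroxyacid oxidase, at least 25.1-fold higher in colon. St6galnac6, a sialyltransferase of gangliosides, stood at least 24.0-fold higher. All of these were called whichever of the 8 arrays was left out. Further probes of St6galnac6 gave log2 differences of 4.61, 3.14 and 2.76 against 5.48 for the probe used.

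The machinery of fat absorption lay on the intestine side. Of 22 listed genes 17 were members, 12 were called lower in colon and 1 higher, and the median difference was -4.36 log2 units, or -3.77 with genes below background in colon set at their bounds. Apoa4 read 12.27 and 13.81 in intestine and 4.72 and 4.22 in colon, at least 256-fold lower in colon (adjusted p = 0.000187). Mttp, which loads lipid onto apolipoprotein B to build chylomicrons, read 10.38 and 10.83 in intestine and 4.83 and 4.80 in colon, at least 47.3-fold lower (adjusted p = 7.46e-05). Apoc3, an apolipoprotein that slows clearance of triglyceride-rich particles, read 12.60 and 13.36 in intestine and 5.22 and 4.60 in colon (log2 difference -8.07 ± 0.47, SE, adjusted p = 0.000244). Creb3l3, a membrane-bound transcription factor of apolipoprotein genes, read 9.96 and 10.04 in intestine and 4.63 and 5.11 in colon (adjusted p = 0.000306). No colon array reached an intestine array in any of them, which was so in all 572 called genes and adds no evidence. In whole tissue, fewer absorptive cells and less RNA per cell cannot be told apart.

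The sterol exporters Abcg5 and Abcg8, which pump plant sterols back into the lumen as a pair, were 27.0-fold and 57.9-fold lower in colon. Abcg8 read 11.49 and 11.85 in intestine and 5.70 and 5.93 in colon, and Abcg5 read 12.41 and 12.90 and 7.64 and 8.16. Both had an adjusted p under the threshold (0.00135 and 0.00538), and Abcg5 missed it without replicate 1 of colon with Nanog (adjusted p = 0.0538). The gene of the list that was higher in colon was Plin2, which coats lipid droplets, 2.59-fold (adjusted p = 0.0265). It was not called without either array of intestine or of colon with Nanog. Tm6sf2, a membrane protein needed to secrete lipid-rich particles, belongs to the genes with the largest differences and was 24.5-fold lower in colon (adjusted p = 0.000793). Between 8 and 14 genes of the list were called lower with 1 array left out, fewest without either colon array with Nanog, and 6 without replicate 2 of both Nanog groups.

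Brush border enzymes were lower in colon, with 11 members of 19 listed, all 11 differences negative, 5 called lower and a median of -3.22. Sis read 13.33 and 12.52 in intestine and 4.48 and 4.38 in colon, at least 237-fold lower (adjusted p = 0.000184). Treh, which splits trehalose, read 11.30 and 12.40 in intestine and 4.75 and 4.89 in colon, at least 112-fold lower (adjusted p = 0.000129). Mme, the peptidase neprilysin, stood at least 24.5-fold lower (adjusted p = 0.00229), while a second probe gave a log2 difference of -3.34 against -5.26. Anpep, aminopeptidase N, read 12.98 and 10.02 in intestine and 5.62 and 5.67 in colon, 58.0-fold lower, but its intestine replicates lay almost 3 log2 units apart. Anpep and the metalloprotease subunit gene Mep1b, 9.32-fold lower, each passed in 2 of the 8 fits that left out 1 array, with adjusted p-values of up to 0.202 and 0.16. Between 3 and 8 genes of the list were called with 1 array left out, Sis, Treh and Mme every time, and 3 without replicate 2 of both Nanog groups. The count was 3 without any 1 of the 6 arrays other than the pair of intestine without Nanog.

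To show what lies before these genes, the 250 bases upstream of the transcript start are printed for the 4 called transport, absorption and digestion genes with the smallest p in each direction that the promoter table covers, from RefSeq on build GRCm38.p6, 5′ to 3′ on the gene's strand. The first 4 genes were higher in colon.
Fxyd4 (chr6:117937336-117937585, minus strand): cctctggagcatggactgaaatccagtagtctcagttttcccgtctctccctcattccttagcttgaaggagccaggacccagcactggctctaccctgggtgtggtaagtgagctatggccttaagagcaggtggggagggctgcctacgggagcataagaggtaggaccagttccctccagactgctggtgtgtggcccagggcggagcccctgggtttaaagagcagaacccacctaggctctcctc
Scnn1b (chr7:121864788-121865037, plus strand): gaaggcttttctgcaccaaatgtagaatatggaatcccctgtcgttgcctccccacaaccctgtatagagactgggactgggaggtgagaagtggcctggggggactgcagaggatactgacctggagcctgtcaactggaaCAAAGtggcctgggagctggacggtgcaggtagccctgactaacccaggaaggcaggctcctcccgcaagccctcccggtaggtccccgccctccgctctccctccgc
Slc20a1 (chr2:129198523-129198772, plus strand): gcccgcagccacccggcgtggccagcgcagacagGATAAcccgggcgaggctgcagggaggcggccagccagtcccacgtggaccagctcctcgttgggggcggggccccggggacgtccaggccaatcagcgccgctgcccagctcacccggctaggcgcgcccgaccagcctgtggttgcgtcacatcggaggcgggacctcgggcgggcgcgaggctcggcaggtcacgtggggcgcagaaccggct
Scnn1g (chr7:121734229-121734478, plus strand): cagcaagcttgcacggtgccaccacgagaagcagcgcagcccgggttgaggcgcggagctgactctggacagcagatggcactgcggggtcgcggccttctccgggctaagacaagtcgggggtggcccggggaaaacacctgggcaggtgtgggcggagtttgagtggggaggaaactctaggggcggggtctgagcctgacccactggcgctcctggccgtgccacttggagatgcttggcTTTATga
The other 4 were lower in colon.
Mttp (chr3:138143419-138143668, minus strand): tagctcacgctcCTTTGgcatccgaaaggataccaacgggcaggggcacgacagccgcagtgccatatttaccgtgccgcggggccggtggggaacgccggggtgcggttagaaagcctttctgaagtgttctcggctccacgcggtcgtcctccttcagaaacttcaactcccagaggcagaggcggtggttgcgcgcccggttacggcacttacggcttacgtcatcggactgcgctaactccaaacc
Treh (chr9:44672983-44673232, plus strand): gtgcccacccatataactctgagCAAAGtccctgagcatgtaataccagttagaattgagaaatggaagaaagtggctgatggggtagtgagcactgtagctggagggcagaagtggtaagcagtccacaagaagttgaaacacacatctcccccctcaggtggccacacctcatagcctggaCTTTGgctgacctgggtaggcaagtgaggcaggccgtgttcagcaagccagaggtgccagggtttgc
Sis (chr3:72967864-72968113, minus strand): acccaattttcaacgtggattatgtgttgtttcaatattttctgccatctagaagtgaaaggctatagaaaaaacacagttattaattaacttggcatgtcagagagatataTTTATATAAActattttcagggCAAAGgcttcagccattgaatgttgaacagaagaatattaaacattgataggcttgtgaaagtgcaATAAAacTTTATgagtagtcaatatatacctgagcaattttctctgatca
Apoa4 (chr9:46240594-46240843, plus strand): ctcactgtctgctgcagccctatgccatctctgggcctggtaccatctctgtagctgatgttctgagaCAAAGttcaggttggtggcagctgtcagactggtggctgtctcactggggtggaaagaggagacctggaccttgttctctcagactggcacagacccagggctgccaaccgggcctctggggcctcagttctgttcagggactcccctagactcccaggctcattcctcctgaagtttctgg
Capitals mark the letters GATAA, bound by GATA factors, TTTAT, bound by CDX factors, and CAAAG, part of the site of HNF4, on either strand. The table holds 2 starts for Slc20a1 and the first was used. The Sis promoter holds TTTAT 4 times, with 2 of the matches side by side, and CAAAG once, Treh holds CAAAG 2 times, and Mttp, Apoa4 and Scnn1b hold it once. Scnn1g holds TTTAT once, Slc20a1 holds GATAA once, and Fxyd4 none of the 3. Over all 32851 promoters of the table, 22.6% held GATAA, 37.3% TTTAT and 48.6% CAAAG. Of the 26 genes of these lists called lower in colon 21 had a promoter in the table, of which 8 held GATAA, 6 TTTAT and 15 CAAAG. Of the 10 called higher 6 had one, of which 1 held GATAA, 2 TTTAT and 2 CAAAG. These are letter matches and not measured binding.

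Transporters that take sugars, amino acids and peptides into the absorptive cell followed the enzymes. Of 20 listed genes 11 were members, 6 were called lower in colon and 0 higher, and the median difference was -3.18. Slc6a19, the main carrier for neutral amino acids, read 10.92 and 10.72 in intestine and 4.74 and 5.10 in colon (log2 difference -5.90 ± 0.43, SE, adjusted p = 0.000537). Slc2a2, the basolateral glucose carrier, read 9.55 and 10.09 in intestine and 4.47 and 4.47 in colon, at least 27.4-fold lower (adjusted p = 0.00168), and 2 further probes of the gene gave log2 differences of -2.87 and -2.40. Slc7a9, part of the carrier for cystine and basic amino acids, was 31.1-fold lower, with log2 differences of -2.14 and -5.00 from its other probes against -4.96. Slc5a1, the sodium-coupled glucose carrier of the brush border, differed less, 5.18-fold, with 12.08 and 11.95 in intestine and 10.16 and 9.13 in colon (adjusted p = 0.035), and passed in 2 of the 8 fits that left out 1 array (highest adjusted p = 0.211). Slc7a15, an amino acid carrier gene, stood at least 11.1-fold lower and lost its call without either colon array with Nanog. Between 3 and 9 genes of the list were called with 1 array left out, fewest without either colon array with Nanog, and 1 without replicate 2 of both Nanog groups.

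Bile acid carriers were read by 6 members of 10 listed, 3 called lower in colon. Slc51a and Slc51b encode the 2 subunits of the basolateral bile acid exporter. Slc51a read 13.20 and 11.24 in intestine and 4.65 and 4.32 in colon, at least 145-fold lower (adjusted p = 0.00111), while Slc51b was above background in both regions and 9.39-fold lower (adjusted p = 0.0129). Abcc2, an exporter of conjugates, stood at least 10.8-fold lower, while a second probe gave a log2 difference of -2.20 against -4.00. Fabp6 did not pass (log2 difference -3.19 ± 2.38, SE, adjusted p = 0.491), since its intestine replicates lay apart as given above, and without replicate 1 of intestine with Nanog its difference turned to 1.05. Slc51b was not called without either colon array with Nanog (highest adjusted p = 0.107), and 1 gene of the list was called without replicate 2 of both Nanog groups.

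Uptake of iron, calcium and vitamins was read by 9 members of 18 listed, with 4 called lower in colon, 0 higher and a median of -1.25. Rbp2, which carries retinol inside absorptive cells, was 23.8-fold lower, with 10.79 and 12.21 in intestine and 6.97 and 6.89 in colon (adjusted p = 0.00183). Amn, part of the receptor for vitamin B12 bound to intrinsic factor, read 12.31 and 10.28 in intestine and 5.08 and 4.81 in colon, Tcn2, a B12 carrier, was 3.60-fold lower and Heph, an iron oxidase, 2.39-fold lower. Rbp2 was called whichever array was left out. The other 3 each lost their calls without any 1 of the 4 arrays with Nanog, with adjusted p-values of up to 0.144, 0.155 and 0.246.

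Among drug and steroid metabolizing enzymes, cytochrome P450 genes went both ways. Of 30 listed, 21 were members, 8 called lower and 2 higher in colon, with a median of -1.44. Cyp3a11, a main oxidizer of drugs, read 11.22 and 12.24 in intestine and 4.36 and 4.43 in colon, at least 103-fold lower (adjusted p = 0.00229), and Cyp3a25 stood at least 46.5-fold lower. Cyp2d26 read 10.58 and 11.79 in intestine and 5.52 and 5.12 in colon, 58.2-fold lower (adjusted p = 0.000644). Its relative Cyp2d34 read 4.37 and 4.40 in intestine and 9.19 and 8.81 in colon, at least 13.7-fold higher (adjusted p = 0.000254). These 4 genes were called whichever array was left out, but genes of these families are alike in sequence and a probe may read a close relative. Between 4 and 10 P450 genes were called lower with 1 array left out, fewest without replicate 1 of colon with Nanog, and 2 without replicate 2 of both Nanog groups.

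Conjugating enzymes, which attach sulfate, glucuronic acid or glutathione, leaned towards intestine, with 23 negative and 6 positive differences. Of 29 members among 34 listed, 4 were called lower and 1 higher in colon, against 3.46% and 3.18% of all genes tested, and the median was -0.72. Sult1a1, a phenol sulfotransferase, was the gene called higher, 5.54-fold, with 12.63 and 11.79 in colon and 9.66 and 9.82 in intestine (adjusted p = 0.00559). Ugt2a3, a glucuronosyltransferase, stood at least 3.73-fold lower, Sult2b1, which sulfates cholesterol, was 9.48-fold lower and Mgst1, a membrane glutathione transferase, 3.82-fold lower. Sult1a1 was called in all 8 fits with an array left out, and 0 of the genes called lower were called without either colon array with Nanog.

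Genes of arginine synthesis and the urea cycle, which let small intestinal cells make citrulline, had 12 members of 16 listed, with 6 called lower in colon, 0 higher and a median of -1.45. Cps1, which makes carbamoyl phosphate, read 10.94 and 11.22 in intestine and 6.98 and 7.64 in colon, 13.7-fold lower (adjusted p = 0.00679). Otc, which joins it to ornithine, read 6.94 and 6.87 in intestine and 4.37 and 4.22 in colon, at least 3.65-fold lower (adjusted p = 0.00633). Slc25a15, the mitochondrial ornithine carrier, was 5.84-fold lower and Nags, which makes the activator of Cps1, at least 2.22-fold lower. The list hung on the colon arrays: between 0 and 7 genes were called with 1 array left out, 0 without replicate 1 of colon with Nanog, and 0 without replicate 2 of both Nanog groups. Arg2, the mitochondrial arginase, did not pass, with 11.36 and 11.87 in intestine and 10.96 and 10.39 in colon (log2 difference -0.94 ± 0.42, SE, adjusted p = 0.243).

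Paneth cell genes gave the largest bounds of the comparison. Of 27 listed, 11 were members, 5 called lower and 1 higher in colon, with a median of -5.68, or -5.08 with bounded genes at their bounds. Defa20, an alpha-defensin, read 14.46 and 14.04 in intestine and 4.34 and 4.56 in colon, at least 592-fold lower (adjusted p = 2.41e-05). A second Defa20 probe gave a log2 difference of -7.57 against -9.80, with an unadjusted p of 0.0281. Itln1, a lectin that binds microbial sugars, read 13.12 and 11.88 in intestine and 4.64 and 4.76 in colon, at least 176-fold lower (adjusted p = 0.000537). Mmp7, the protease that activates defensins in mice, read 8.08 and 7.51 in intestine and 4.28 and 4.33 in colon, at least 6.76-fold lower (adjusted p = 0.00113). Defa26 and Defa39, further alpha-defensins, stood at least 271-fold and 177-fold lower, with intestine replicates of 14.42 and 11.83 for Defa26, and both lost their calls without either colon array with Nanog. Alpha-defensin genes are near copies, so their probes cannot be taken to read 1 gene each.

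The lysozyme probes gave different readings. Lyz1, the Paneth cell lysozyme, read 14.22 and 14.27 in intestine and 12.94 and 13.34 in colon and did not pass (adjusted p = 0.0604), but its 2 other probes above background gave log2 differences of -7.17 and -6.22, against -1.10 for the brightest. The gene of the list that was higher in colon was Lyz2, the lysozyme of macrophages, 3.82-fold (adjusted p = 0.0146), which was not called without replicate 2 of either Nanog group. Between 3 and 8 genes of the list were called lower with 1 array left out, fewest without either colon array with Nanog, and 2 without replicate 2 of both Nanog groups. The crypt gene Olfm4, which marks stem cells of the small intestine, read 10.92 and 10.27 in intestine and 4.41 and 4.33 in colon, at least 47.0-fold lower (adjusted p = 0.000382), and was the only called gene among 6 members of the 20 crypt stem cell and Wnt target genes listed.

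The Reg lectins, which include antimicrobial proteins, were not called. All 6 members of 7 listed missed the threshold, and 0 passed, although the median difference was -1.62. Reg3b read 14.64 and 14.67 in intestine with Nanog but 4.95 and 14.01 on replicates 1 and 2 of colon with Nanog. Reg3g read 13.17 and 11.31 in intestine and 4.28 and 9.03 in colon (adjusted p = 0.0771). Replicate 2 of colon, high for both, is also an array high in pancreatic genes, and the part of this in the Reg values was not tested. Without that array, Reg3b had a log2 difference of -9.70 (adjusted p = 0.0200) and Reg3g of -7.96 (adjusted p = 0.0226), and 3 of the 6 genes passed.

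Of 15 goblet cell members among 19 listed, 1 was called higher in colon and 0 lower, against 3.18% and 3.46% of all genes tested. The median of the list was 0.62. The called gene was St3gal6, a sialyltransferase, 2.89-fold higher with 11.69 and 11.65 in colon and 9.71 and 10.56 in intestine (adjusted p = 0.0383), and it passed in 3 of the 8 fits that left out 1 array (highest adjusted p = 0.207). The counts with 1 array left out ran from 0 to 4, with 0 called without any 1 of the 4 colon arrays. Bcas1, with the next smallest p of the list, read 11.80 and 11.72 in colon and 10.28 and 8.80 in intestine (adjusted p = 0.06).

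Hormone genes divided by region. Of 19 enteroendocrine members among 26 listed, 2 were called higher and 4 lower in colon, and the median was -0.01. Insl5 read 11.85 and 11.44 in colon and 4.45 and 4.58 in intestine, at least 85.6-fold higher (adjusted p = 5.08e-05), in every fit with an array left out. Pyy, which encodes the ileal and colonic satiety hormone peptide YY, read 12.58 and 12.63 in colon and 9.91 and 8.88 in intestine, 9.29-fold higher (adjusted p = 0.00943). Sct, which encodes secretin, a hormone of the upper small intestine, read 11.54 and 12.78 in intestine and 8.08 and 8.28 in colon, 15.8-fold lower (adjusted p = 0.00769), and Gip, an incretin of the duodenum, stood at least 4.83-fold lower (adjusted p = 0.0197). The other called genes were Cck, which encodes cholecystokinin and stood at least 9.37-fold lower, and Sst, which encodes somatostatin and was 5.02-fold lower. All 4 lower calls were lost without either colon array with Nanog, and Pyy without those and without replicate 2 of intestine with Nanog (highest adjusted p = 0.0818).

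Posterior Hox genes lay on the colon side. All 6 members of the 16 listed genes of Hox groups 9 to 13 had positive differences, 2 were called higher in colon, and the median was 1.27, or 0.59 with bounded genes at their bounds. Hoxd10 read 8.01 and 8.56 in colon and 4.30 and 4.26 in intestine, at least 8.34-fold higher (adjusted p = 0.00229), and Hoxd13 read 5.98 and 6.09 and 4.44 and 4.41, at least 1.75-fold higher (adjusted p = 0.00702). Hoxd10 was called whichever array was left out, and Hoxd13 was not called without either colon array with Nanog (highest adjusted p = 0.0846). Of the 7 members of Hox groups 1 to 8, 0 passed, and the median was 0.13. The intestine replicates lay apart in some of these, with 6.86 and 4.24 for Hoxb7.

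Among 21 members of 32 listed transcription factors of gut regions, 5 were called lower and 2 higher in colon. Of all genes tested 3.46% and 3.18% were, and the median of the list was -0.39. Tbx3, a T-box factor, read 9.77 and 9.12 in intestine and 5.69 and 5.31 in colon, 15.4-fold lower (adjusted p = 0.00113), and its other probes gave log2 differences of -1.21 and -3.69 against -3.94. Nr1i3, the xenobiotic receptor CAR, stood at least 5.28-fold lower, Hnf4g, a nuclear receptor of absorptive cells, at least 1.76-fold lower and Nr1i2, the xenobiotic receptor PXR, was 2.58-fold lower. The remaining called genes, named after their values were seen, were Gata5, at least 3.15-fold lower in colon, and Klf4 and Foxa2, 2.35-fold and at least 1.57-fold higher in colon. Tbx3 was called whichever array was left out, and the others were not. Cdx2, a master factor of intestinal identity, read 9.91 and 8.84 in intestine and 6.82 and 5.98 in colon and just missed the threshold (log2 difference -2.98 ± 0.69, SE, adjusted p = 0.0509). Gata4, the factor of the upper small intestine, read 5.15 and 5.39 in intestine, was not above background in colon and did not pass (adjusted p = 0.135).

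The claudins, which set the permeability of tight junctions, had 12 members of 18 listed and a median of 0.20. In colon 1 was called lower and 2 higher, against 3.46% and 3.18% of all genes tested. Cldn15, a sodium-permeable claudin of the small intestine, read 11.35 and 11.67 in intestine and 7.75 and 7.97 in colon, 12.5-fold lower (adjusted p = 0.00261), in every fit with an array left out. Cldn4, a sealing claudin, was 3.08-fold higher in colon (adjusted p = 0.0245) and Cldn14, which was not above background in intestine and too close to it in colon for a bound, was also called higher (adjusted p = 0.0429). Each of these passed in 2 of the 8 fits that left out 1 array.

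The genes with the largest differences towards intestine that fall outside these lists included several with known roles at the mucosal surface. Ms4a10, a gene of enterocytes, read 13.04 and 13.08 in intestine and 6.18 and 6.89 in colon, 92.2-fold lower, the largest difference among called genes that were above background on all 4 arrays (log2 difference -6.53 ± 0.44, SE, adjusted p = 0.000406). Guca2b, which encodes uroguanylin, a peptide that drives fluid secretion, read 14.09 and 13.67 in intestine and 8.27 and 7.61 in colon, 61.5-fold lower (adjusted p = 0.000702). Lgals2, a galectin, read 12.83 and 12.47 in intestine and 4.95 and 5.01 in colon, at least 196-fold lower (adjusted p = 2.41e-05). Tm4sf5, a tetraspan membrane protein, stood at least 161-fold lower and its relative Tm4sf4 47.5-fold lower, with -2.15 as the log2 difference of a further Tm4sf4 probe. G6pc, the last enzyme of glucose release, read 10.27 and 10.62 in intestine and 4.67 and 4.73 in colon, at least 42.4-fold lower (adjusted p = 5.08e-05). All of these were called whichever of the 8 arrays was left out.

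Genes of T cells and of their recruitment lay on the intestine side with Nanog. Without Nanog the T cell list given below had a median of -0.49 and 1 gene called lower. In the limma test of the difference between the regional differences 5 genes of that list had an unadjusted p under 0.05. The smallest adjusted p of the list in that test was 0.789. Ccl25, the chemokine that draws lymphocytes to the small intestine, read 12.88 and 12.59 in intestine and 6.54 and 6.39 in colon, 77.2-fold lower (adjusted p = 0.000896). Of 21 listed genes of T cells and cytotoxic cells 11 were members, all 11 differences were negative, 7 were called lower in colon, and the median was -2.17, or -1.74 with bounded genes at their bounds. Ccl5, a chemokine of activated T cells, read 9.76 and 10.99 in intestine and 5.49 and 4.99 in colon (log2 difference -5.14 ± 0.42, SE, adjusted p = 0.000852). Cd3e, a chain of the T cell receptor complex, read 7.32 and 8.03 in intestine and was not above background in colon, at least 6.21-fold lower (adjusted p = 0.0142). Klrd1, a receptor of killer cells, was 5.83-fold lower and Nkg7, a protein of cytotoxic granules, at least 3.34-fold lower. Between 1 and 8 genes of the list were called with 1 array left out, fewest without replicate 2 of colon with Nanog, and 1 without replicate 2 of both Nanog groups, while Ccl5 and Ccl25 were called in all 8 fits. Of the interferon response genes 1 of 14 members was called lower in colon, against 3.46% of all genes tested. It was Psmb8, a proteasome subunit of antigen processing, 3.98-fold lower. Of the 14 differences 13 were negative, with a median of -1.10, while without Nanog the median of that list was 0.36. The lists for B and plasma cells, MHC class II and mast cells, with 4, 6 and 5 members, had 0 calls. Macrophage and granulocyte genes went the other way in 7 of 9 members, with a median of 0.65, and 1 was called, Cd14, the receptor for bacterial endotoxin, 6.52-fold higher in colon (adjusted p = 0.0346). Cd14 passed in 2 of the 8 fits that left out 1 array (highest adjusted p = 0.208), and Psmb8 was lost without replicate 2 of either Nanog group (highest adjusted p = 0.12).

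Connective tissue genes leaned towards colon. All 15 members of the 16 listed fibroblast and matrix genes had positive differences, 5 were called higher in colon, and the median was 1.63. Sparc, a collagen binding matrix protein, read 12.53 and 12.50 in colon and 10.33 and 10.08 in intestine, 4.95-fold higher (adjusted p = 0.0123), while a second probe gave a log2 difference of 1.40 with an unadjusted p of 0.0601. Col1a1, a chain of type I collagen, read 10.09 and 10.74 in colon and 7.90 and 7.62 in intestine, 6.30-fold higher (adjusted p = 0.0197). Col5a1 was 4.44-fold and Thy1, a surface protein of fibroblasts, 3.13-fold higher. Between 0 and 7 genes of the list were called with 1 array left out, 0 without replicate 2 of intestine with Nanog or without either colon array with Nanog, and 0 without replicate 2 of both Nanog groups. Of 13 smooth muscle members 1 was called higher in colon, against 3.18% of all genes tested, and the median was -0.06. It was Tagln, which binds actin, 2.39-fold higher. Tagln passed in 2 of the 8 fits that left out 1 array (highest adjusted p = 0.199). Of 8 endothelial members 0 were called and the median was -0.07.

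Genes of dividing cells and of sterol synthesis were not called. Of 16 members of the DNA replication and mitosis list 0 passed and the median was -0.30, and of 14 members of the cholesterol list 0 passed and the median was -0.10. The lists for hepatocytes, gastric epithelium, skeletal and squamous cells, with 3, 1, 3 and 2 members, had 0 calls, no gene of the male accessory gland list was a member, and the mesothelial list had 1 of 3 called, Upk1b, at least 2.41-fold lower in colon. Enteric neurons and glia, immediate early and sex-linked genes had 0 calls among 4, 8 and 2 members, and the adipocyte list 1 of 5, Cidec, which is described below.

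**Figure D4:**
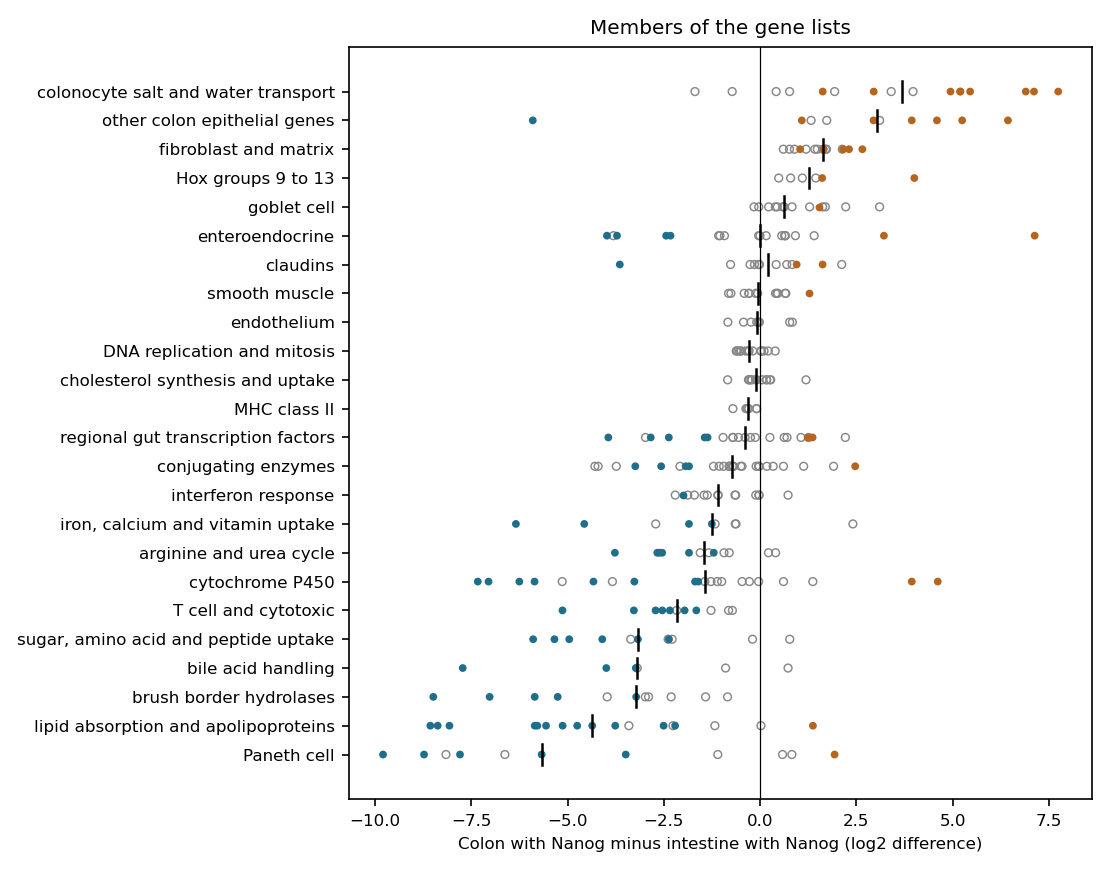
Log2 difference, colon with Nanog minus intestine with Nanog, of each member of 24 gene lists, with filled points for called genes (orange higher, blue lower in colon), open points for the rest and a bar at each list's median. Medians run from 3.69 for colonocyte transport at the top to -5.68 for Paneth cells at the bottom.

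The same comparison without Nanog, on 4 other arrays of the series, gave the same regional differences their own test. It called 473 genes (5.5%), 210 (2.44%) higher and 263 (3.06%) lower in colon. Of the 572 genes called with Nanog 308 were called without it, all 308 in the same direction, 123 higher and 185 lower. They are 53.8% of the list with Nanog and 65.1% of the list without. Both comparisons share the estimate of each gene's spread. Of the 572 genes 98.1% had the same sign of the difference without Nanog, against 73.1% of all genes tested, and over the 8191 members the differences with and without Nanog correlated with r = 0.838, a description across genes on separate arrays.

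Of the 264 genes called with Nanog and not without, 253 kept the sign without Nanog and 11 had the opposite sign. The 11 were Gadd45b, Ces1c, Gimap6, Gzmk and Insc, lower in colon with Nanog, and P3h3, Nox4, Pdgfrl, Rgs2, Tmem106c and Cldn4, higher in colon with Nanog. Cldn4, for example, read 11.07 and 10.53 in intestine and 10.64 and 10.53 in colon without Nanog, and 8.71 and 8.44 and 9.90 and 10.49 with Nanog. A call in 1 comparison and not in the other does not show that they differ. In the test of the difference between the regional differences 0 of 8607 genes (0%) passed in limma, 361 (4.19%) had an unadjusted p under 0.05, and the smallest adjusted p was 0.106. It made 3 calls without background correction, 3 with a larger offset, and 20 without replicate 1 of intestine without Nanog.

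The genes nearest to that threshold are given by their values in the 4 groups. Fxyd4 read 9.16 and 9.34 in colon without Nanog and 12.60 and 12.36 with Nanog, and it was not above background in either intestine group. Best2 read 8.37 and 7.92 in colon without and 11.47 and 11.70 with Nanog, also without a reading above background in intestine. In both genes the colon arrays with Nanog lay wholly above those without. Both were named for a small p in the test of the difference, so this separation adds no evidence to it. The regional log2 difference of Rgs16 was 0.87 without and 3.34 with Nanog, and that of Rnf186, a ubiquitin ligase gene, 1.03 without and 3.05 with Nanog. For Arg2 the regional difference was -5.09 without Nanog, where colon read 5.73 and 6.04, and -0.94 with Nanog, where colon read 10.96 and 10.39.

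Towards intestine, G6pc read 6.86 and 7.12 in intestine without and 10.27 and 10.62 with Nanog, while colon was not above background in either. Sult1a1 was higher in colon in both settings, by 5.26 log2 units without and 2.47 with Nanog, and its intestine arrays read 6.67 and 6.91 without and 9.66 and 9.82 with Nanog. Cidec, which fuses lipid droplets, read 7.78 and 7.93 in colon without and 5.57 and 5.83 with Nanog, against 8.62 and 8.46 and 8.50 and 9.40 in intestine. Its regional difference was -0.69 without and -3.25 with Nanog (adjusted p = 0.00211). Nxpe2, a gene of colonic epithelium, was not above background in either intestine group and read 8.96 and 9.19 in colon without and 6.32 and 5.10 with Nanog, where the regional difference was not called (adjusted p = 0.0986). Rgcc, a regulator of the cell cycle, had regional differences of 1.57 without and -0.28 with Nanog. None of these changes passed the adjusted test of the difference.

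**Figure D5:**
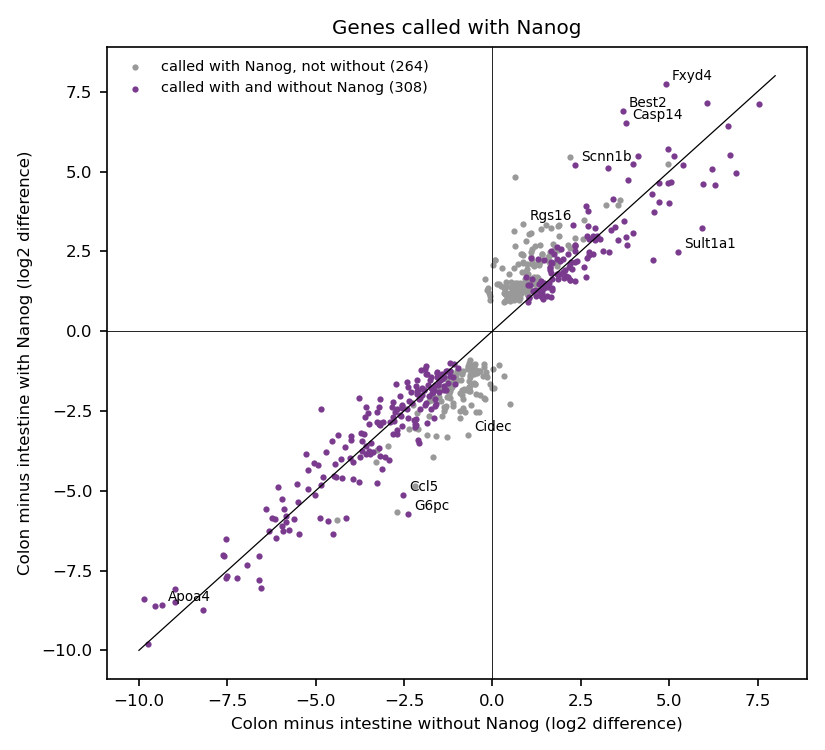
Log2 difference between colon and intestine without Nanog (horizontal axis) and with Nanog (vertical axis) for the 572 genes called with Nanog, with the 308 genes also called without Nanog in purple and the other 264 in grey. Points on the diagonal have equal differences, and Best2, Fxyd4 and Scnn1b lie above it and G6pc, Ccl5 and Cidec below it.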

How the data were processed

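The authors deposited, for each of 8 arrays, Illumina bead intensities with a detection p-value for each of 25697 probes, and a table of normalized log2 values. BeadStudio 3.2, RMA and lumi are named in the submitters' processing notes, and per the labels 300 ng of total RNA was labelled with biotin. On every array the deposited log2 values had the same quantiles and the same rank order as the intensities.

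The deposited intensities were background corrected with limma 3.58.1 (R 4.3.3; normexp from the detection p-values, offset 16), quantile normalized and put on the log2 scale. A probe was kept if it had 1 annotated gene and if the detection p-values of both arrays in any group were below 0.01, with the brightest probe for each gene, which left 8607 genes. A model of the 4 group means was fitted to all 8 arrays (4 residual degrees of freedom), contrasts were tested with eBayes, and p-values were adjusted over all 8607 genes by Benjamini-Hochberg at 0.05. A gene not above background on either array of a group has only a bound there. The fit was tested on simulated data, which says nothing of how the real arrays vary. Figures were drawn with matplotlib 3.10.9.

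The median intensity was 84.6 on replicate 2 of intestine with Nanog and 96.2 to 107.7 on the other arrays, and 10652 to 11993 probes were above background. The number of arrays limits the precision, and the smallest called difference among genes above background everywhere was 0.90 log2 units. The labels name no batch or slide.

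The members and the gene lists were chosen with earlier results of these data known. Genes were named by a rule: the 10 with the largest called difference in each direction among genes above background on all 4 arrays, the 10 with the largest bounds in each direction, up to 4 genes with the smallest p in each list, a fixed panel of regional genes, and the 5 genes with the smallest p of the difference between the regional differences in each direction. Of lists without calls only some members are named. Other genes were named after their values were seen.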

Additional observations from a re-analysis of the deposited data

How the results depend on the processing

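Of the 572 calls with Nanog, counts within 1.5 times of that number came from the authors' normalized values (529), no background correction (481), a larger offset (522), median scaling (479), cyclic loess (526), the mean of a gene's probes (570), a variance trend with robust estimation (629), only the 4 arrays compared (670), genes detected in the Nanog groups alone (597), a 2-fold minimum (562) and the pancreatic mean as a covariate (650). No detection filter gave 378 calls with and 304 without Nanog, over more genes tested. Detection on all 8 arrays gave 339 and 287, over fewer genes. Array weights gave 946 with Nanog, and fitting only the 4 arrays without Nanog gave 189. Leaving out replicate 2 of both Nanog groups gave 59 calls with Nanog, 57 of them among the 572, and 189 without Nanog, with fewer residual degrees of freedom. Leaving out 1 array at a time gave 132 to 912 calls with Nanog, 140 to 779 without and 0 to 20 for the difference between the regional differences, the lone array of a group being assumed to vary like the other groups. That difference had 0 calls in the other settings except 3 with no background correction and 3 with a larger offset, and no value could be had from only 4 arrays. The cause was not tested where the construction of a setting does not show it.

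Replicate numbers are shared between groups but the labels do not say that they pair animals. With the replicate block the counts were 649 with Nanog, 538 without and 0 for the difference. Deviations of same-numbered arrays correlated at 0.43 with Nanog and 0.31 without, over only 2 numbers. A slide block was not run because the files name no slide. With 1 array left out the difference of Fabp6, -3.19, ran from -7.44 without replicate 2 to 1.05 without replicate 1 of intestine with Nanog, and with median scaling that of Rgcc turned from -0.28 to 0.037. Signal near background limits genes that were above it in 1 region to a bound.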

Other observations

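Gene families were looked at after the values were seen, and their counts are descriptions. Over all genes tested 3.18% were called higher and 3.46% lower in colon, the shares to set beside every family. The families hold genes of the lists above, so their counts repeat calls already given, among them those of St3gal6, Cyp2d26, Cyp2d34, Slc51a, Slc51b, Slc6a19, Slc2a2, Slc7a9, Slc7a15 and Slc25a15. Of 9 sialyltransferases among the members, which finish glycans with sialic acid, 5 were called higher in colon with Nanog and 0 lower. Besides St6gal1, St6galnac6 and St3gal6, these were St6galnac4, with 8.71 and 7.99 in colon and 5.31 and 5.69 in intestine, and St3gal3, 3.99-fold higher, whose second probe gave a log2 difference of 0.44 (unadjusted p = 0.147) against 2.00. St3gal3 passed in 2 of the 8 fits that left out 1 array (highest adjusted p = 0.204), and St6galnac4 was lost without replicate 1 of colon with Nanog (adjusted p = 0.0715). Glycan chain builders of the N-acetylglucosaminyltransferase family divided, with B3gnt7 at 9.88 and 9.93 in colon and 4.50 and 5.97 in intestine and B3gnt5 at 8.64 and 9.25 and 5.22 and 5.21, both called higher, and Gcnt2 at 8.99 and 9.17 and 10.21 and 10.02, called lower in colon. Gcnt2 passed in 2 of those 8 fits (highest adjusted p = 0.236) and the other 2 in all 8.

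The Cyp2d genes, neighbours on chromosome 15 with closely similar sequences, gave opposite calls. Cyp2d12 read 9.48 and 9.24 in colon and 4.29 and 4.26 in intestine, at least 17.6-fold higher, and went with Cyp2d34, while Cyp2d26 was lower in colon. Cyp2d9 read 8.67 and 9.11 in colon and 4.34 and 6.96 on the 2 intestine arrays (adjusted p = 0.0469). Among annexins, which bind membranes in the presence of calcium, Anxa8 read 7.97 and 8.37 in colon and 4.28 and 4.24 in intestine and Anxa1 read 7.98 and 7.81 and 5.85 and 4.55, both called higher, while Anxa13 read 6.67 and 6.81 and 11.03 and 10.82, called lower in colon. Of 3 gasdermins, pore-forming proteins, 2 were called higher in colon. Gsdmc3 read 8.91 and 8.62 in colon and 4.97 and 4.48 in intestine, and Gsdmc2 read 11.29 and 10.82 and 7.38 and 4.23. Cyp2d9, Anxa1 and Gsdmc2 passed in 4, 3 and 3 of the 8 fits (highest adjusted p 0.245, 0.191 and 0.204), and the other genes called in this paragraph in all 8.

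Of 177 solute carriers 25 were called lower and 5 higher in colon, against 3.46% and 3.18% of all genes tested, and their median difference was -0.12. Slc26a6, an anion exchanger, stood at least 72.3-fold and Slc27a2, a fatty acid carrier and ligase, at least 59.3-fold lower in colon. Acyl-CoA synthetases, which activate fatty acids, had 3 higher and 1 lower call among 7 members. Acsm3 was higher by 3.15, Acss2 by 2.67 and Acsl3 by 2.17 log2 units in colon, while Acsl5 had a difference of -2.21. Acsm3 and Acsl3 passed in 2 and 2 of the 8 fits, Acsl5 in 6 and Acss2 in 8, with highest adjusted p-values of 0.146, 0.266, 0.09 and 0.0257. Of 17 aldehyde and alcohol dehydrogenases 7 were called lower and 1 higher in colon.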
